A study of Arabidopsis thaliana with 26 samples.

Results

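In Arabidopsis roots, 8 genes gave a lower signal 9 to 15 min after the move to fresh medium than before it, whether that medium held KNO3 or KCl, and by a similar amount in both salts at 9 min. They were picked out of 22746 probe sets (the groups of oligonucleotides that each report 1 transcript on the ATH1 array), of which 13513 were annotated with 1 gene and 8617 of those had a mean signal of 100 or more over the 26 arrays. On the scale log2(signal + 32), the group mean of each gene was at least 0.4 below the time 0 mean with KNO3 and with KCl at 9, 12 and 15 min, and KNO3 minus KCl was between -0.3 and 0.3 at 9 min. The genes were chosen by these measured values, so the distance from time 0 at 9 to 15 min is given as a description, without a test. The 8 genes are AT3G27400, P1R1 (AT5G57780), AT4G30320, AT3G44450, NPF4.4 (AT1G33440, of the NRT1/PTR family), AT1G50060, AT4G13180 and UGT72B3 (AT1G01420, UDP-glucosyl transferase 72B3). The gene tables used here give no name beyond the locus tag for 5 of them.

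The samples were whole roots of 14-day-old plants of the Columbia ecotype, grown in sterile liquid culture on an ammonium source with sucrose and deprived of nitrogen for a day. Roots were harvested 3, 6, 9, 12, 15 and 20 min after transfer to renewed nitrogen-free medium supplied with KNO3, or with KCl at the same concentration, and 1 further group was harvested at time 0, before transfer. Each of these 13 groups was measured on 2 arrays. Both arrays of a group are described as biological replicates, and no source used here says which plants or cultures each came from, so the p-values below measure the spread between these arrays. No group that was handled without a change of salt is among the samples used here, and time 0 plants differ from all the others in both the transfer and the salt.

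Plants that take up nitrate sense it within minutes and switch on genes for its transport and reduction. KCl supplies the same amount of potassium without nitrate, and in a difference seen with both salts the transfer, the handling and the potassium salt cannot be told apart. Among the genes that do carry a name, NPF4.4 belongs to the NRT1/PTR family, membrane carriers whose members move nitrate, peptides, hormones or glucosinolates. UGT72B3 belongs to the UDP-glycosyltransferases, enzymes that attach sugars to small molecules, and its group 72 includes enzymes acting on phenolic compounds and monolignols. RNA from whole roots is a mixture of cell types, and fewer cells of a type and less RNA per cell cannot be told apart in it.

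The arrays formed sets that touch these results. The 8 arrays at 3 and 6 min had hybridization spike signals of 11.92 to 12.78 (mean log2 over 9 spike probe sets) and correlated less well within a group (r of 0.935 to 0.95 across the 8617 probe sets). The 8 arrays at 12 and 15 min had spike signals of 9.97 to 10.59 and r of 0.967 to 0.98, and the 10 arrays at time 0, 9 and 20 min had spike signals of 9.35 to 9.92 and r of 0.983 to 0.99. The labels name no batch, and the time point cannot be told apart from whatever set these arrays apart. The tissue was checked on the markers that had a probe set of their own in the annotation used here. The root hair expansins EXPA7 and EXPA18 had signals between 462 and 1385 on the 26 arrays. No marker of endodermis, stele or root cap was analysed here. RCA, a leaf gene, was the 1 leaf marker of 7 found in that annotation. It had 237 and 266 on the time 0 arrays. Its signal was 1582 on KNO3 15 min replicate 1 and 726 on KNO3 12 min replicate 2. The part of RCA in the results was not tested. Without KNO3 12 min replicate 2 all 8 genes still met the rule, and without KNO3 15 min replicate 1 all but AT4G13180 did.

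The rule left few genes at each step. Of the 8617 probe sets, 234 were 0.4 or more below time 0 with KNO3 at 9 min, 75 also with KCl at 9 min, 19 also with both salts at 12 min and 12 also with both salts at 15 min, and 4 of these 12 were removed because the salts differed by more than 0.3 at 9 min. The 8 genes stand close to the limits. AT4G30320 was just inside on the salt difference at 9 min (0.30), and AT3G44450 and NPF4.4 were just inside on KCl at 9 min (-0.41 each). Just outside were AT2G07170 (-0.398 with KNO3 at 9 min, mean time 0 signal 293), AT5G51010 (-0.39 with KCl at 9 min, 422) and AT5G60630 (-0.37 with KNO3 at 9 min, 331). Another 7 probe sets with no gene listed met the same limits and are not described.

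The number of genes that met the rule moved most with the 2 time 0 arrays, which enter every difference. With replicate 2 alone as time 0, 61 genes met the rule and 6 of the 8 were among them, all but NPF4.4 and UGT72B3. With replicate 1 alone as time 0, 15 genes met it and 4 of the 8 were among them. P1R1, AT4G30320, AT3G44450 and AT4G13180 were not. Leaving out KCl 9 min replicate 2 cost as many of the 8: 6 genes met the rule and 4 of the 8 were among them. Between the time 0 arrays themselves, replicate 2 minus replicate 1 ranged from -0.38 to 0.75 log2 over the 8 genes (median 0.19), against -0.41 to 0.41 for the 5th to 95th percentile of the 8617 probe sets. AT3G27400 was the 1 gene that met the rule whichever of the 14 arrays used by it was left out.

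Against time 0, the 8 genes were low together at 9 to 15 min, as chosen, and with KNO3 also at 20 min, but not at 3 and 6 min. By the rule, all 8 were 0.4 or more below time 0 at 9, 12 and 15 min, where 2.72%, 6.02% and 7.52% of the 8617 probe sets were so with KNO3, and 4.76%, 6.57% and 5.72% with KCl. Their median difference with KNO3 was -0.15 (3 min), -0.34 (6 min), -0.53 (9 min), -0.61 (12 min), -0.76 (15 min) and -0.70 (20 min). With KCl it was -0.28 (3 min), -0.52 (6 min), -0.65 (9 min), -0.70 (12 min), -0.85 (15 min) and -0.63 (20 min). On this scale the medians of both salts lay furthest below time 0 at 15 min, but after quantile normalization the KCl median was -0.91 at 6 min and -0.80 at 15 min, and the KNO3 median -0.64 at 6 min and -0.74 at 15 min. The mean difference over 9 to 15 min of all 8617 probe sets had a median near 0, at -0.007.

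At 20 min, a time the rule did not use, all 8 genes were still 0.4 or more below time 0 with KNO3 (4.14% of the 8617 probe sets were) and 5 of 8 with KCl (3.25%). Both arrays of a group lay below both time 0 arrays for 8 of 8 genes with KNO3 at 20 min (21.8%) and for 7 of 8 with KCl (16.8%), the exception being AT4G30320. The time 0 arrays of these comparisons are those that chose the genes, so the counts are no independent check of the fall. The 3 genes short of 0.4 with KCl at 20 min were AT4G30320 (-0.20), AT1G50060 (-0.37) and P1R1 (-0.39). Of 21 genes that met the same rule with the sign turned, 18 were still 0.4 or more above time 0 at 20 min with each salt. The share of the 8617 probe sets that were so raised was not counted. The 18 of 21 thus cannot be set against a background, and these genes too were chosen on the time 0 arrays. The difference between the lowered and the raised genes in this was not tested.

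At 3 min, 3 of 8 genes were 0.4 or more below time 0 with KNO3 (18.9% of the 8617 probe sets were) and 3 of 8 with KCl (24.5%). At 6 min it was 3 of 8 with KNO3 (19.8%) and 6 of 8 with KCl (21.9%). Both arrays lay below both time 0 arrays for 4 genes with KNO3 (28.9%) and 3 with KCl (30.9%) at 3 min, and for 5 with KNO3 (30%) and 6 with KCl (30.1%) at 6 min. These arrays spread the whole set of genes far wider than the later ones, and the 3 min counts lie near that background. The time 0 arrays in these comparisons are again those that chose the genes. The counts at 3 and at 6 min are thus no independent check of the fall. The scaling matters here: over all 22746 probe sets the median difference from time 0 was 0.13 to 0.22 at 3 and 6 min and 0.003 to 0.015 after quantile normalization, which set the counts at 3 of 8 with KNO3 (21.6% of the 8617 probe sets) and 5 of 8 with KCl (27.3%) at 3 min, and at 6 of 8 with KNO3 (25.5%) and 7 of 8 with KCl (28.7%) at 6 min.

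**Figure D1:**
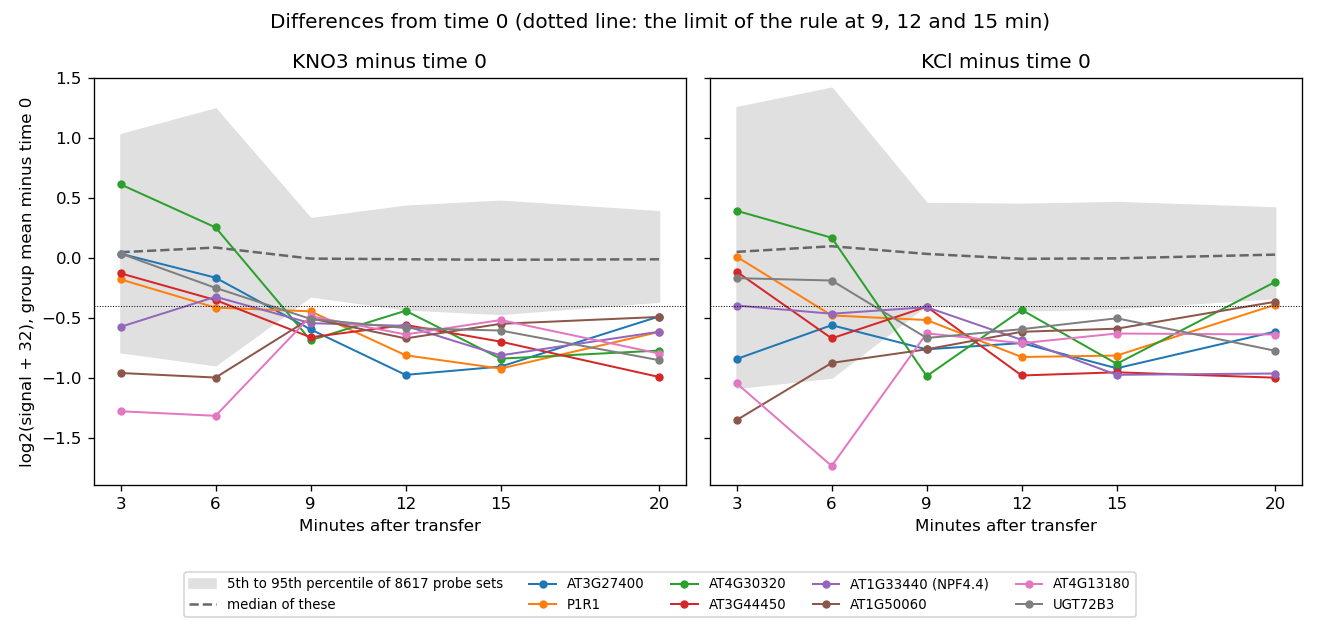
Group mean minus time 0 mean on the log2(signal + 32) scale (vertical axis) against minutes after transfer (horizontal axis), with KNO3 in the left panel and KCl in the right. Lines are the 8 genes, the grey band holds the 5th to 95th percentile of 8617 probe sets and the dotted line is the limit of the rule at 9, 12 and 15 min; all 8 genes lie on or below that line from 9 to 20 min with KNO3, and 5 of 8 do at 20 min with KCl.

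The 8 genes followed different courses over the first 6 min. AT4G13180 and AT1G50060 were lowest at 3 or 6 min and partly back towards time 0 by 9 min. NPF4.4 was below time 0 with both salts at 3 min by about as much as at 9 min. AT3G44450, P1R1 and UGT72B3 were near time 0 at 3 min and lower later, AT3G27400 was so with KNO3 only, and AT4G30320 was above time 0 at 3 and 6 min before it was below. Since the 3 and 6 min arrays form a set of their own, these courses are descriptions of the arrays.

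NPF4.4, the carrier of the NRT1/PTR family, had signals of 287 and 266 on the time 0 arrays. With KNO3 its signals on replicates 1 and 2 were 175 and 175 after 3 min, 202 and 227 after 6 min, 177 and 182 after 9 min, 133 and 230.5 after 12 min, 121 and 168 after 15 min and 205 and 138 after 20 min. With KCl they were 268 and 150.3 after 3 min, 155 and 234 after 6 min, 203 and 197 after 9 min, 159.6 and 160.1 after 12 min, 135 and 115 after 15 min and 116 and 137 after 20 min. All arrays after transfer were below both time 0 arrays except KCl 3 min replicate 1, which lay between them. The differences from time 0 were -0.54 (9 min), -0.57 (12 min) and -0.81 (15 min) with KNO3, and -0.41 (9 min), -0.68 (12 min) and -0.98 (15 min) with KCl. At 9 min both KNO3 arrays were below both KCl arrays, at 20 min both were above, the nearest pair only narrowly, and at the other times the salts overlapped. The arrays of KNO3 12 min were as far apart in signal as the mean of that group was from time 0.

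UGT72B3, the glucosyltransferase, had 241 and 178 at time 0. KNO3 roots gave 225 and 202 after 3 min, 146 and 195 after 6 min, 134 and 138 after 9 min, 139.7 and 116 after 12 min, 127 and 123 after 15 min and 106 and 95.4 after 20 min. KCl roots gave 194 and 169 after 3 min, 193 and 164 after 6 min, 173 and 78.6 after 9 min, 126 and 126 after 12 min, 108 and 171 after 15 min and 149 and 76.2 after 20 min. At 3 and 6 min 5 of 8 arrays were within the range of the time 0 pair, and from 9 min on all 16 arrays were below it. The differences at 9 to 15 min were -0.51 (9 min), -0.59 (12 min) and -0.61 (15 min) with KNO3, and -0.67 (9 min), -0.59 (12 min) and -0.50 (15 min) with KCl. The KCl pairs at 9, 15 and 20 min differed more between their own arrays than their means did from the lower time 0 array. Of the 14 arrays used by the rule, 4 cost the gene its place when left out.

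P1R1 had 205 and 227 at time 0, and its mean signal over all arrays, 149, was near the minimum of 100 that the rule sets. Its KNO3 signals were 177 and 197 after 3 min, 160.0 and 148 after 6 min, 145 and 155 after 9 min, 94.6 and 125 after 12 min, 121 and 79.3 after 15 min and 143 and 117 after 20 min. Its KCl signals were 248 and 191 after 3 min, 124 and 171 after 6 min, 146 and 136 after 9 min, 87.4 and 131 after 12 min, 109.9 and 108 after 15 min and 172 and 143 after 20 min. With KNO3 every array was below both time 0 arrays from 3 min on, and with KCl every array from 6 min on, while the KCl arrays at 3 min straddled the time 0 pair. The group means lay -0.45 (9 min), -0.81 (12 min) and -0.92 (15 min) from time 0 with KNO3, and -0.52 (9 min), -0.83 (12 min) and -0.82 (15 min) with KCl, so that 9 min was the smallest of the 3 differences in both salts. At 20 min the difference was -0.62 with KNO3 and -0.39 with KCl, and the higher KNO3 array was level with the lower KCl array at that time.

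AT4G13180 had 2941 and 3989 at time 0. After transfer to KNO3 its signals were 1229 and 1574 after 3 min, 1206 and 1519.7 after 6 min, 2295 and 2585 after 9 min, 1824 and 2625 after 12 min, 2177 and 2605 after 15 min and 1827 and 2095 after 20 min. After transfer to KCl they were 1411 and 1908 after 3 min, 1034 and 977 after 6 min, 2371 and 2046 after 9 min, 2069 and 2088 after 12 min, 1983 and 2441 after 15 min and 2389 and 2003 after 20 min. All 24 arrays after transfer were below both time 0 arrays. The lowest values were those at 3 and 6 min, where the differences were -1.28 and -1.32 with KNO3, and -1.05 and -1.74 with KCl. At 9 to 15 min they were smaller, -0.49 (9 min), -0.64 (12 min) and -0.52 (15 min) with KNO3, and -0.63 (9 min), -0.71 (12 min) and -0.63 (15 min) with KCl. The 2 time 0 arrays differed from each other by more than the lower of them differed from several later arrays, and with replicate 1 alone as time 0 the gene no longer met the rule.

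AT1G50060 had 1079 and 1163 at time 0, a close pair. KNO3 arrays read 622 and 504 after 3 min, 607 and 489 after 6 min, 764 and 797 after 9 min, 744 and 643 after 12 min, 723 and 788 after 15 min and 1004 and 616 after 20 min. KCl arrays read 442 and 397 after 3 min, 657 and 540.1 after 6 min, 615 and 681 after 9 min, 678 and 764 after 12 min, 939.7 and 571 after 15 min and 824 and 903 after 20 min. As for AT4G13180, all 24 arrays after transfer were below both time 0 arrays, and the lowest lay at 3 and 6 min. The differences there were -0.96 and -1.0 with KNO3, and -1.35 and -0.88 with KCl, against -0.50 (9 min), -0.67 (12 min) and -0.55 (15 min) with KNO3, and -0.76 (9 min), -0.62 (12 min) and -0.59 (15 min) with KCl, later. The arrays of a pair stood well apart at 15 min with KCl and at 20 min with KNO3, with replicate 1 the higher of both pairs and closer to the time 0 level.

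AT3G44450 had 378 and 566 at time 0, a wide pair. In KNO3 roots the signals were 391 and 453 after 3 min, 361 and 351 after 6 min, 278 and 283 after 9 min, 272 and 339 after 12 min, 265 and 282 after 15 min and 219 and 214 after 20 min. In KCl roots they were 445 and 406 after 3 min, 247 and 314 after 6 min, 311 and 374 after 9 min, 209.7 and 228 after 12 min, 207 and 241 after 15 min and 227 and 204 after 20 min. At 3 min all 4 arrays lay between the time 0 arrays, and from 6 min on all 20 were below both. The differences were -0.66 (9 min), -0.56 (12 min) and -0.70 (15 min) with KNO3, and -0.41 (9 min), -0.98 (12 min) and -0.95 (15 min) with KCl, and at 20 min they reached -0.99 with KNO3 and -1.0 with KCl, the largest of this gene in both salts. KNO3 arrays were above KCl arrays without overlap at 6, 12 and 15 min and below them at 9 min.

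AT3G27400 had the largest mean difference at 9 to 15 min of the 8 (-0.81 over both salts) and signals of 306 and 369 at time 0. Its KNO3 arrays gave 379.9 and 314 after 3 min, 348 and 252 after 6 min, 223 and 201 after 9 min, 152 and 158 after 12 min, 206 and 129.9 after 15 min and 247 and 215 after 20 min. Its KCl arrays gave 133 and 223 after 3 min, 223 and 212 after 6 min, 191 and 179 after 9 min, 196 and 190.1 after 12 min, 149.6 and 176 after 15 min and 177 and 245 after 20 min. At 3 min both KNO3 arrays were above the lower time 0 array and both KCl arrays were below the pair, and from 9 min on every array of both salts was below both time 0 arrays. The group means were -0.60 (9 min), -0.98 (12 min) and -0.91 (15 min) from time 0 with KNO3, and -0.76 (9 min), -0.71 (12 min) and -0.92 (15 min) with KCl. KCl was thus already at about its later level at 3 min (-0.84) while KNO3 was not (0.04), and at 12 min the order of the salts was turned, with both KNO3 arrays below both KCl arrays.

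AT4G30320 was above time 0 with both salts at both 3 and 6 min, and its 408 and 705 at time 0 were a wide pair, 0.75 apart on the log2(signal + 32) scale. With KNO3 it had signals of 762 and 925 after 3 min, 549.5 and 762 after 6 min, 288 and 358 after 9 min, 358 and 419 after 12 min, 316 and 258 after 15 min and 251 and 359 after 20 min. With KCl it had signals of 543 and 941 after 3 min, 632 and 585 after 6 min, 221 and 294 after 9 min, 384 and 395 after 12 min, 314 and 243 after 15 min and 416 and 516 after 20 min. At 3 min both KNO3 arrays were above both time 0 arrays, and with KCl 1 of the 2 was. From 9 to 15 min 11 of 12 arrays were below both time 0 arrays, the exception being KNO3 12 min replicate 2, and for the other 7 genes 12 of 12 were. Both arrays of a group thus lay below the time 0 pair for 8 of 8 genes with KNO3 at 9 min (20.7% of the 8617 probe sets), 7 of 8 at 12 min (20.2%) and 8 of 8 at 15 min (25.4%), and with KCl for 8 of 8 at each of these times (20.5%, 25% and 23.3%), counts that the rule itself makes high. The differences were 0.61 and 0.26 with KNO3 and 0.39 and 0.17 with KCl at 3 and 6 min, then -0.69 (9 min), -0.44 (12 min) and -0.84 (15 min) with KNO3, and -0.99 (9 min), -0.43 (12 min) and -0.88 (15 min) with KCl. KCl at 20 min was back within the range of the time 0 arrays, and KNO3 was not.

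**Figure D2:**
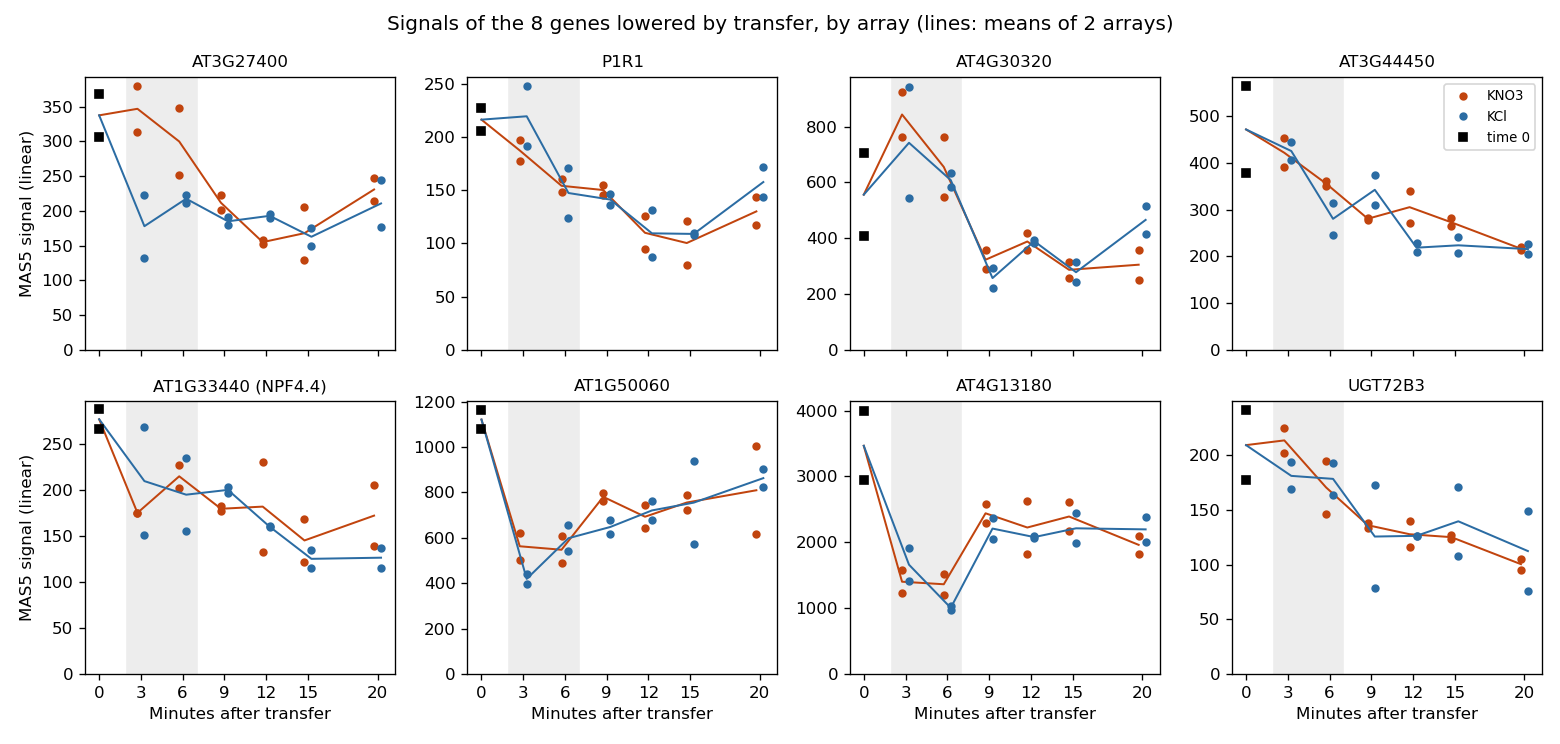
Signal of each gene (vertical axis, linear intensity units) on each of the 26 arrays against minutes after transfer (horizontal axis), 1 panel per gene, with KNO3, KCl and time 0 arrays marked as in the legend and the 3 and 6 min arrays shaded. All arrays at 9, 12 and 15 min lie below both time 0 arrays in 7 panels, and 11 of 12 do for AT4G30320.

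Whether the salts differed was tested only at 3, 6 and 20 min. The KNO3 and KCl arrays of these times had no part in the limits on the time 0 or salt differences. The test was limma across all 22746 probe sets, with p adjusted over all of them. It took 1 spread per gene from all 13 groups, so a gene has the same SE at 3, 6 and 20 min. The arrays at 3 and 6 min agreed less well within a group than those at 20 min. The shared SE can thus be too small at 3 and 6 min and too large at 20 min. At 3 min AT3G27400 was higher with KNO3, with 379.9 and 314 in KNO3 roots, against 133 and 223 in KCl roots, a log2 difference of 0.88 (SE 0.23, adjusted p = 0.0474). It was the 1 gene of 8 past the threshold of 0.05, where 2.59% of all probe sets were past it in either direction and 1.39% with KNO3 higher. The other 7 differences ranged from -0.23 for AT4G13180 to 0.39 for AT1G50060 (SE 0.21, adjusted p = 0.344). The call of AT3G27400 stood close to the threshold: adjusted p was 0.0543 without the offset, 0.0505 without the intensity trend and 0.714 with the 3 min arrays fitted alone. It was also above 0.05 without KCl 3 min replicate 1 (0.213), KNO3 3 min replicate 1 (0.155) or KNO3 3 min replicate 2 (0.085), and it was 0.0229 without KCl 3 min replicate 2.

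At 6 min 0 of 8 genes passed (0.637% of all probe sets did). An unadjusted p under 0.05 was found for 1 of 8 genes (and for 2802 of the 22746 probe sets). That gene was AT4G13180, with 1206 and 1519.7 in KNO3 roots and 1034 and 977 in KCl roots, a difference of 0.42 (SE 0.19, adjusted p = 0.377). AT3G27400 followed with 0.40 (SE 0.23, adjusted p = 0.518), and 6 of the 8 differences were above 0. At 20 min 0 of 8 passed (0.73% of all probe sets did), again with 1 at an unadjusted p under 0.05 (1261 of the 22746 probe sets). This was AT4G30320, lower with KNO3 by value, at 251 and 359 in KNO3 roots and 416 and 516 in KCl roots, a difference of -0.57 (SE 0.26, adjusted p = 0.834). NPF4.4 stood at the other end with 0.35 (SE 0.26).

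A p above the threshold does not show that a gene responded alike to both salts, and the intervals were wide. At 20 min the 95% intervals of the 8 differences reached from -1.11 to 0.90 log2, and the narrowest was that of AT3G44450, -0.37 to 0.39 around 0.01. At 6 min the intervals reached from -0.655 to 0.88. The salt difference of a gene at 20 min minus that at 3 min passed for 0 of 8 genes (1.25% of all probe sets passed). An unadjusted p under 0.05 was found for 2 of 8 genes (and for 2661 of the 22746 probe sets). The differences were -0.79 for AT4G30320 (SE 0.37, adjusted p = 0.395) and -0.75 for AT3G27400 (SE 0.33, adjusted p = 0.357). The highest was 0.53 for NPF4.4. A change of the salt difference between 3 and 20 min was therefore not detected for any of the 8 with 2 arrays per group. Changes between other times were not tested.

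**Figure D3:**
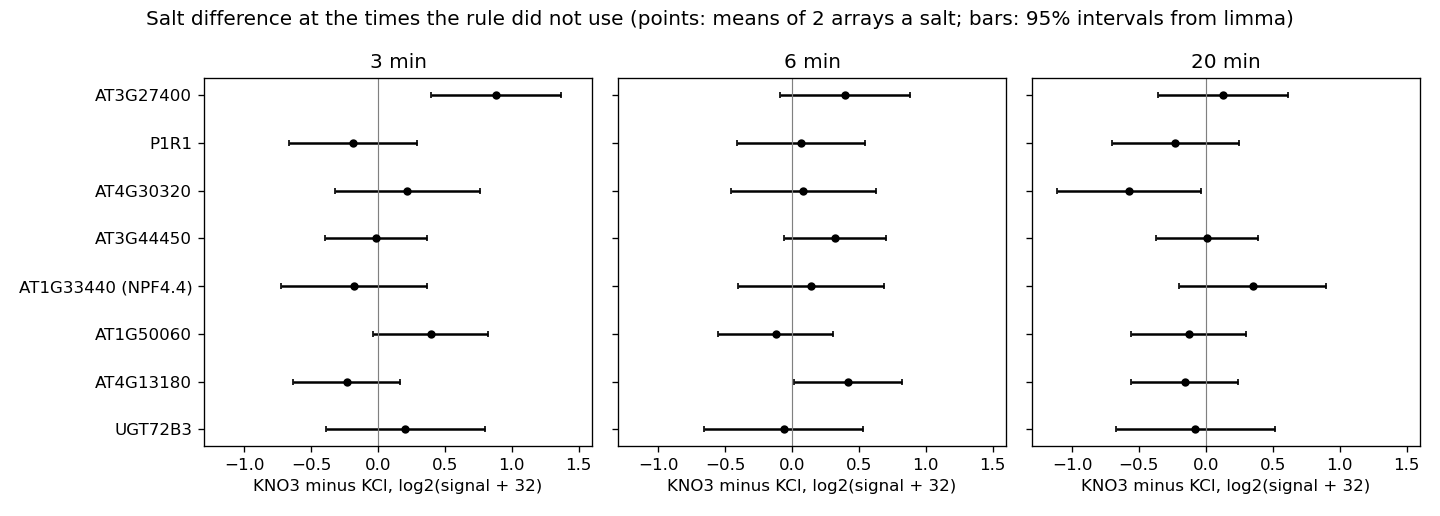
KNO3 minus KCl on the log2(signal + 32) scale (horizontal axis) for each of the 8 genes (vertical axis), in 1 panel each for 3, 6 and 20 min. Points are differences of the means of 2 arrays, bars are unadjusted 95% intervals from limma, and AT3G27400 at 3 min (0.88) is the 1 value past the adjusted threshold.

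The first minutes were compared within the 3 and 6 min arrays, which share neither the time 0 arrays nor the rule's later arrays. Averaged over both salts, 6 min minus 3 min passed for 0 of 8 genes (7.31% of all probe sets passed). An unadjusted p under 0.05 was found for 3 of 8 genes (and for 5516 of the 22746 probe sets). These were AT3G44450 (-0.39, SE 0.13, adjusted p = 0.0696), AT4G13180 (-0.36, SE 0.14, adjusted p = 0.106) and P1R1 (-0.36, SE 0.16, adjusted p = 0.174), all below 0. After quantile normalization AT3G44450 (-0.59, adjusted p = 0.0127) and P1R1 (-0.66, adjusted p = 0.0204) passed. In that setting 1587 of the 22746 probe sets passed. AT3G44450 also passed without dim probe sets (adjusted p = 0.049), where fewer than the 22746 probe sets were tested and 1560 of those tested passed. Without KCl 3 min replicate 1 the difference of AT4G13180 was -0.47. With the 3 and 6 min arrays fitted alone, 82 probe sets and 0 of the 8 genes passed. Adjusted p was then 0.351 for AT3G44450, 0.309 for AT4G13180 and 0.544 for P1R1. The median of 6 min minus 3 min over all probe sets was 0.09, and 0.01 after quantile normalization.

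NPF4.4 and UGT72B3 were set beside relatives, which were chosen once these genes were known and are given by values alone. Through the annotation used here, 11 genes of the NRT1/PTR family were found, and 10 had a mean signal of 100 or more. They are a part of the family: NRT1.1, which the study reports on these arrays, is not among them. Of the 10, NPF4.4 (-0.67 as the mean over 9 to 15 min and both salts) was the 1 lowered in all 6 groups. It was chosen for this (0.139% of the 8617 probe sets were so lowered), and relatives outside this set were not examined. The other 9 lay between -0.08 for AT1G72125 and 0.20 for GTR2, a glucosinolate transporter, with GTR1, its close relative of the same function, at 0.18. Among the 5 genes of glycosyltransferase group 72 found in the annotation, UGT72B3, likewise chosen for its fall, stood at -0.58. The others stood at -0.02 for GT72B1, 0.11 for UGT72E3, 0.26 for UGT72E2 and 0.26 for UGT72E1. The last 3 are enzymes that glucosylate monolignols. The 26 further UGT genes found in the annotation with a mean signal of 100 or more ranged from -0.37 to 0.44.

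**Figure D4:**
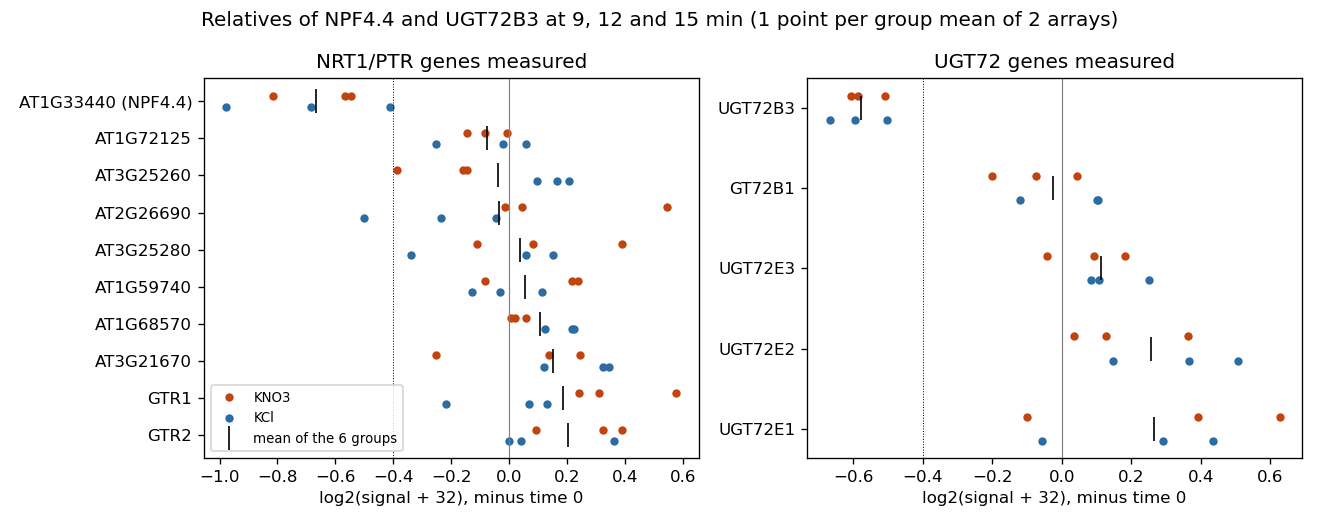
Difference from time 0 on the log2(signal + 32) scale (horizontal axis) of the relatives found in the annotation. The left panel holds the 10 NRT1/PTR genes with a mean signal of 100 or more, the right panel the 5 UGT72 genes. Each gene has a point for each salt at 9, 12 and 15 min and a tick for the mean of these 6 groups. The dotted line is at -0.4. The means of NPF4.4 (-0.67) and UGT72B3 (-0.58) lie left of that line and those of all relatives shown lie between -0.08 and 0.26.

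Genes listed for responses that a transfer could carry are given by values. The lists, drawn up with earlier results of these data known, covered touch and wounding, hypoxia, heat shock, ethylene, auxin, cytokinin, sugar and nitrogen starvation and the circadian clock. Of their 115 genes, 16 had a probe set annotated with that gene alone. The annotation used here left 8730 of the 22746 probe sets without a gene. That the others were not found does not mean that the array lacks them. Among the 8 genes were 0 of the 16, and the 8 are so few of the 8617 probe sets that the count says nothing about the lists. In the tests of the salts 1 of the 16 passed. This was ZAT10, a zinc finger repressor of early stress responses. Its salt difference was 1.05 higher at 20 than at 3 min (adjusted p = 0.0286). HRA1, which damps the hypoxia response, was the 1 hypoxia gene of 14 found in the annotation. It averaged -0.91 at 9 to 15 min, but unequally between the salts. With KNO3 it was at -1.68, -1.24 and -1.66, and with KCl at -0.23, -0.38 and -0.25, at 9, 12 and 15 min. Its time 0 arrays read 159 and 390, a wide pair, and all of these differences rest on that pair. The 4 touch and wound regulators found in the annotation had a median of 0.46. The nitrate transporter gene NRT2.5, from the list of nitrogen starvation, had 0.52. The other medians were 0.13 for 6 auxin-responsive genes and -0.19 for 2 cytokinin response genes. These medians rest largely on dim probe sets. Of the auxin-responsive genes, IAA29, GH3.1, GH3.3 and LBD29 had mean signals of 57, 79, 38 and 63. The cytokinin response genes ARR15 and ARR16 had 63 and 52. All of these are below the minimum of 100, so these genes could not have met the rule. The values were 0.13 for 1 sugar starvation gene and 0.01 for 1 clock gene. No heat shock or ethylene gene of the lists was found in the annotation.

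Markers of 2 root cell types were also lower at 9 to 15 min on average, with overlap for the root hair markers. The summed signal of EXPA7 and EXPA18, 2 of 4 root hair markers, was 1143 to 2028 at 9 to 15 min, against 1831 to 2575 at time 0, with a median log2 difference of -0.41. The cortex marker CO2 had 129 to 218 at 9 to 15 min, against 224 and 252 at time 0, a mean difference of -0.46, with all 12 arrays below both time 0 arrays. These 3 marker genes did not meet the rule, since none was 0.4 or more lower in all 6 groups, and their part in the differences of the 8 genes was not tested. The 8 genes themselves lay on 4 chromosomes, with 3 on chromosome 1, 2 on chromosome 3, 2 on chromosome 4 and 1 on chromosome 5.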

How the data were processed

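Roots of 13 groups, 2 arrays each, were measured on ATH1 arrays. The authors deposited 1 linear signal intensity per probe set for each array, computed with MAS5, and no version beyond that name is used here. The mean signal of each array without its highest and lowest 2% was 500.0, which differs from the target stated in the methods, and 1517 values were below 1. The number of arrays limits the precision.

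Leaving out 64 control probe sets of 22810 left 22746, of which the platform annotation gave 13513 a single gene, 503 several and 8730 none. Symbols were updated through the RefSeq gene table of assembly TAIR10.1. Signals were taken as log2(signal + 32), an offset that damps dim probe sets and shrinks their differences. limma 3.58.1 in R 4.3.3 fitted all 26 arrays as 13 groups with an intensity trend (13 residual and 6.65 prior degrees of freedom), and p was adjusted by Benjamini-Hochberg within each comparison. The methods fitted the signals in a linear model. Python 3.11.15 with pandas 2.3.3 applied the rule and made the figures. The fit was tested on simulated data.

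The members and lists were chosen with earlier results of these data known. All members are named, along with the 3 genes just inside and the 3 just outside the limits; relatives were chosen after the members were known. The labels number the replicates but do not say whether same-numbered arrays belong together. The deviations of same-numbered KNO3 and KCl arrays correlated at -0.06 to 0.08, which does not settle this. Alternatives were the offset, brightness minimum, size of the fall, trend, quantile normalization, a replicate block, fits on the tested time points alone and leaving out each array; 3 were added after seeing the data. A search for promoter motifs was not run, since no sequences were used here.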

Additional observations from a re-analysis of the deposited data

Results flagged for a closer look

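For 3 genes the order of the salts turned between time points, with both KNO3 arrays on one side of both KCl arrays at one time and on the other side at another. This was also so for 48.3% of the 8617 probe sets, so 3 of 8 is no more than the background. In none of these was the difference tested, because the 9, 12 or 15 min arrays in each pair also chose the genes. AT3G27400 was higher with KNO3 at 3, 6 and 9 min and lower at 12 min, so that its KNO3 minus KCl difference at 12 min was below that at 3 min by 1.146 log2, below that at 6 min by 0.662 and below that at 9 min by 0.432. AT3G44450 was higher with KNO3 at 6, 12 and 15 min and lower at 9 min, and its salt differences exceeded that at 9 min by 0.575 at 6 min, 0.677 at 12 min and 0.511 at 15 min. NPF4.4 (AT1G33440) was higher with KNO3 at 20 min and lower at 9 min, a gap of 0.483.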

How the results depend on the processing

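The number of genes that met the rule was 8, and it was 13 without the offset, 3 with an offset of 100, 5 with a mean signal of 200 or more, 0 with a fall of 0.6 or more and 20 with 9 and 20 min in place of 9, 12 and 15 min, the last chosen after seeing the data. Leaving out 1 array gave 5 to 61. At 3 min the 589 probe sets past the test became 390 without the trend and 0 with the 3 min arrays fitted alone, and 296 to 1527 without 1 array, and the 1 member past it, AT3G27400, became 0 without the offset, without the trend, with the replicate block (adjusted p = 0.0517, with 646 probe sets past the test) or with the 3 min arrays alone, and 0 to 1 without 1 array. At 6 min the 145 probe sets became 94 without the offset, 77 without dim probe sets, 233 after quantile normalization and 3 with the 6 min arrays alone (120 to 641 without 1 array). The share with KNO3 higher at 6 min was 71 of 145, and 142 of 233 after quantile normalization. At 20 min 166 became 308 with the 20 min arrays alone (78 to 86 without 1 array), and without the 3 and 6 min arrays it was 221. For the difference between 20 and 3 min, 285 became 147 without the trend and 115 with these times alone (106 to 654 without 1 array). For 6 minus 3 min, 1662 became 82 with these times alone (894 to 2993 without 1 array), 994 of 1662 were higher, and 732 of 1587 after quantile normalization. Members past that test numbered 0, but 1 without dim probe sets, 2 after quantile normalization and 0 to 1 without 1 array. At 6 min, at 20 min and for the difference between 20 and 3 min 0 members passed under every alternative run. The cause of these changes was not tested.

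The replicate block changed no other call of a member. Of 462 alternative fits of the 40 tests of members, 38 had the other sign, all of differences of at most 0.284 in size. The filter on dim probe sets removed P1R1 and UGT72B3, which left 6 members tested.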
